A study of Mus musculus with 3 samples.

Results

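The enzymes described here modify and crosslink collagen. They are the lysyl oxidases Lox, Loxl1, Loxl2, Loxl3 and Loxl4, the lysyl hydroxylases Plod1, Plod2 and Plod3, and the prolyl 4-hydroxylase alpha subunits P4ha1 and P4ha2. They were chosen as a family of enzymes by name, with no threshold on their values, and their NCBI gene IDs were found for all 10 among the 27179 genes of the count table. RNA was sequenced from stromal cells of the epididymal fat pad, the visceral depot beside the testis, of 3 naive wild-type male C57B6 mice aged 12 weeks. The fat was digested with collagenase II and the sorted cells were alive, carried CD140a, Sca1 and PDPN, and lacked CD45, CD31 and Ter119. The submitters call them adipose stem and progenitor cells. All 3 libraries, replicates 1, 2 and 3, belong to this 1 group, so there is no treated, mutant or other-tissue group to set them against. The labels do not say whether each library was 1 mouse, and the p-values below measure only the spread between these libraries, which may be technical.

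Collagen chains are hydroxylated on proline and lysine in the endoplasmic reticulum before they fold. Prolyl 4-hydroxylase, a tetramer of catalytic alpha subunits and of protein disulfide isomerase, encoded by P4hb, makes the 4-hydroxyproline that keeps the triple helix stable at body temperature. Lysyl hydroxylases make hydroxylysine, which can carry sugars and which changes the kind of crosslink that forms later. Lysyl oxidases are secreted copper enzymes that oxidise lysine and hydroxylysine in collagen and lysine in elastin, and the resulting aldehydes join neighbouring molecules. In fat these crosslinks set how stiff the matrix around adipocytes is.

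The libraries held 32813373, 25060096 and 27275888 counts. Levels below are CPM, read counts scaled to TMM library sizes, and levels of different genes are compared as CPM per kilobase of annotated exon. A gene at 0 could still have stood at up to 3 counts, that is 0.0945, 0.119 and 0.107 CPM in replicates 1, 2 and 3; this bound covers counting error only. The 3 genes of the surface proteins that were sorted for, Pdgfra, Ly6a and Pdpn, summed to 5197, 4988 and 4386 CPM in the same order. Endothelial markers summed to between 0.252 and 0.436 CPM with 0 of 10 detected, and mature adipocyte markers to between 2.11 and 13.1 CPM with 0 of 9 detected, Adipoq and Cidec being at 0. Macrophage and monocyte markers summed to 7.53, 20.3 and 8.43 CPM, with 1 of 10 detected (Ptprc, the CD45 gene) and C1qb at 0. Mural and myofibroblast markers summed to between 15.4 and 21.2 CPM with 2 of 9 detected (Tagln and Des) and Rgs5 and Higd1b at 0, mesothelial markers to between 10.1 and 21.4 CPM with 1 of 8 detected, and testis and epididymis markers to at most 7.33 CPM with 0 of 8 detected and Insl3 at 0. In sorted bulk cells, fewer cells that express a gene and less RNA per cell cannot be told apart.

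All 10 enzymes were detected, meaning 1 CPM or more in every library. The same rule was met by 35.0% of all genes in the table and by 43.7% of its protein-coding genes. The lowest count of any of them in any library was 190, for Loxl4, with a counting error of 7.25% of the count. Their mean levels ran between 10.2 CPM for Loxl4 and 551 CPM for Loxl1. Per kilobase, 8 of the 10 stood above 6.55 CPM per kilobase, the median of detected genes, and the exceptions were Plod1 and Loxl4.

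**Figure D1:**
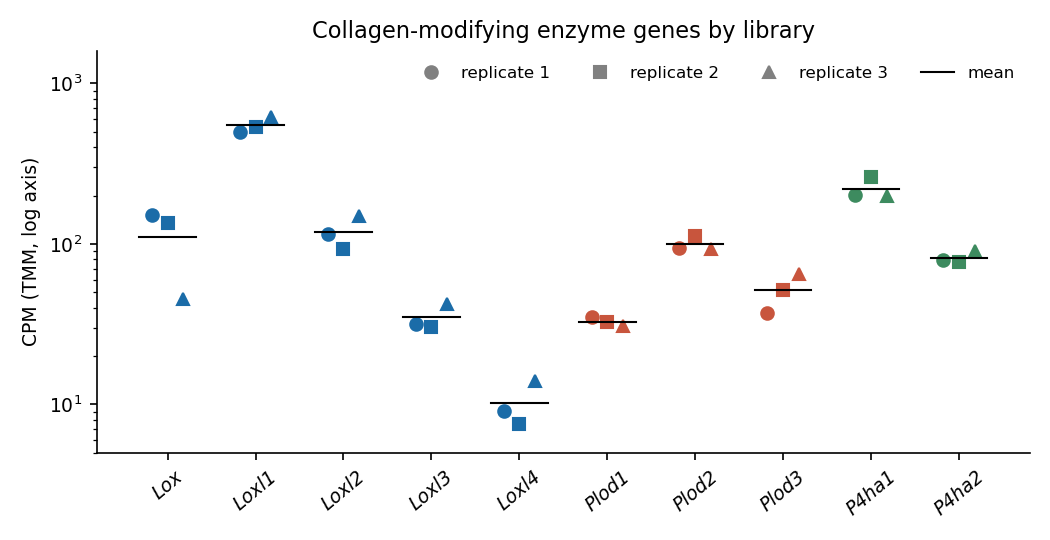
Level of each of the 10 enzymes in CPM, on a log axis, in replicates 1, 2 and 3, grouped by family. Points are single libraries and horizontal lines are means; Loxl1 stood highest at 497 to 622 CPM, and Lox had its replicate 3 point well below the other 2.

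The lysyl oxidases were led by Loxl1, and Lox was the member whose level differed most between libraries. Loxl1 (NCBI gene 16949, chr9:58287723-58313212, minus strand) is best known for the renewal of elastic fibres, to which it is guided by fibulin-5. Its level was 497, 534 and 622 CPM in replicates 1, 2 and 3, a mean of 551 ± 64.3 CPM (SD, n = 3). These values lay within 1.25-fold of each other. Per kilobase Loxl1 averaged 167 ± 19.5, above 98.6% of protein-coding genes with a known length, with 295 such genes higher.

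Lox (NCBI gene 16948, minus strand of chromosome 18 at 52516060 to 52529867) is the founding member of the family and crosslinks both fibrillar collagen and elastin. Its level was 151, 135 and 45.4 CPM in replicates 1, 2 and 3, with a mean of 110 ± 57.0 CPM (SD, n = 3). Replicate 3 was low and replicates 1 and 2 lay close together, and the highest value was 3.33 times the lowest. The coefficient of variation (SD over mean) of Lox was 51.6%, the largest among the 10 enzymes, against a median of 33.2% over all detected genes. That median covers detected genes of every level and was not matched to the level of Lox.

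Loxl2, Loxl3 and Loxl4 carry scavenger receptor domains that Lox and Loxl1 lack. Loxl2 (NCBI gene 94352, chr14:69608692-69695834, plus strand), which crosslinks collagen IV of basement membranes among other substrates, had 115, 92.9 and 148 CPM in replicates 1, 2 and 3. Loxl3 (NCBI gene 16950, chr6:83034205-83052566, plus strand), which mice need for normal palate and spine, had 31.7, 30.6 and 42.4 CPM. Loxl4 (NCBI gene 67573, chr19:42592279-42612806, minus strand), the least abundant of the 10, had 9.07, 7.53 and 14.1 CPM. All of Loxl1, Loxl2, Loxl3 and Loxl4 had their highest level in replicate 3, where Lox had its lowest. Plod3 and P4ha2, of the other families, were also highest there, and Plod1, Plod2 and P4ha1 were not. The share of all genes highest in replicate 3 was not computed. Loxl4 had a coefficient of variation of 33.4%. Lox and Loxl4 were the only 2 of the 10 enzymes above the median of detected genes, which was not matched for level. Among the 10 the median coefficient of variation was 17.3%.

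Summed per kilobase, the family stood at 213, 216 and 238 CPM per kilobase in replicates 1, 2 and 3, a mean of 222 ± 13.9 (SD, n = 3). Replicate 3 was the highest, and the make-up of the sum differed there too. Loxl1 gave 70.9%, 75.1% and 79.2% of it, and Lox gave 14.9%, 13.1% and 3.99%. Loxl2 gave between 7.96% and 11.5%, Loxl3 between 3.08% and 3.87%, and Loxl4 between 0.828% and 1.40%. The share of Lox in replicate 3 was below that of Loxl2 in the same library, whereas in replicates 1 and 2 it was above it. With coding length in place of exon length, Loxl1 averaged 65.3% and Lox 19.4%. Lox has 1233 coding bases within 4778 bases of exon.

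**Figure D2:**
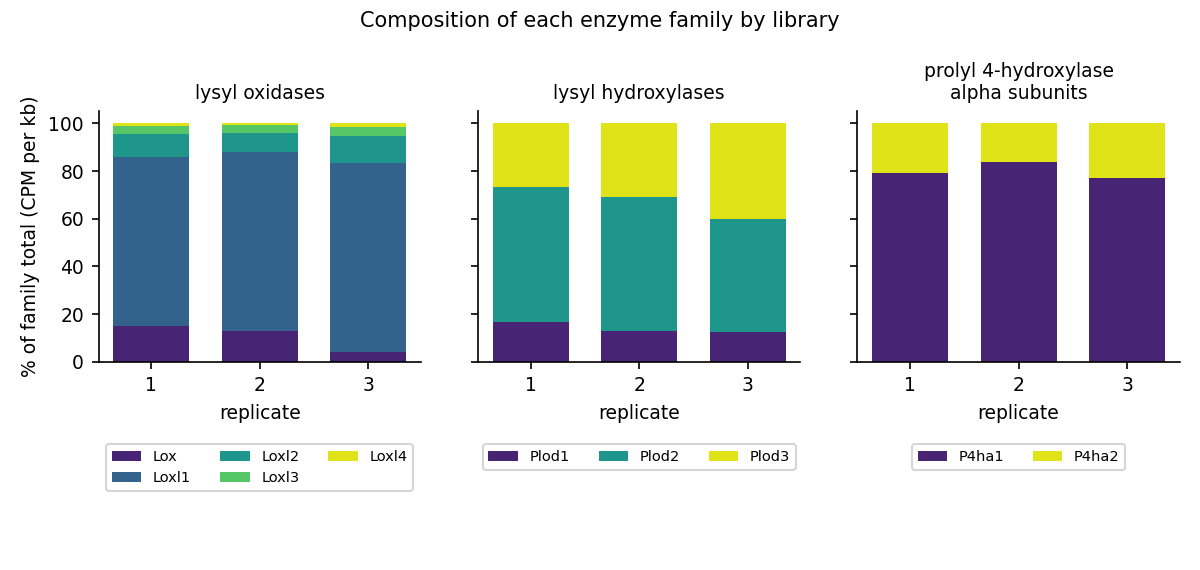
Share of each enzyme in the summed CPM per kilobase of its family, in percent, in each of the 3 libraries, for the lysyl oxidases, the lysyl hydroxylases and the prolyl 4-hydroxylase alpha subunits. Loxl1 held 70.9% to 79.2%, Plod2 47.6% to 56.7% and P4ha1 77.1% to 83.6%.

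The lysyl hydroxylases were led by Plod2. Plod2 (NCBI gene 26432, chr9:92539636-92608428, plus strand) hydroxylates lysines of the collagen telopeptides, the short ends where crosslinks start, and is known from fibrotic tissue. Its level was 94.3, 112 and 92.7 CPM in replicates 1, 2 and 3, a mean of 99.6 ± 10.5 CPM (SD, n = 3). The values lay close together, with a coefficient of variation of 10.6%.

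Plod3 (NCBI gene 26433, chr5:136987019-136996646, plus strand), which also adds glucose to collagen sugars, had 37.0, 51.9 and 65.2 CPM in replicates 1, 2 and 3. The highest of these was 1.76 times the lowest, so Plod3 varied more than the other lysyl hydroxylases. Plod1 (NCBI gene 18822, chr4:147909753-147936776, minus strand), which hydroxylates lysines within the triple helix, had 35.0, 32.5 and 30.6 CPM. With a coefficient of variation of 6.69%, Plod1 was the steadiest of all 10 enzymes. Per kilobase Plod2 gave 56.7%, 56.0% and 47.6% of the family sum, Plod3 26.5%, 31.0% and 39.9%, and Plod1 between 12.5% and 16.8%. The order Plod2, Plod3, Plod1 was the same in all 3 libraries.

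The catalytic subunits of prolyl 4-hydroxylase were both abundant, and P4ha1 stood above P4ha2. P4ha1 (NCBI gene 18451, chr10:59323197-59373304, plus strand) encodes the main alpha subunit of most cells, whose loss is lethal to mouse embryos. Its level was 201, 260 and 199 CPM in replicates 1, 2 and 3, a mean of 220 ± 34.8 CPM (SD, n = 3). P4ha2 (NCBI gene 18452, chr11:54100924-54131668, plus strand), best known in cartilage and endothelium, had 79.1, 77.2 and 89.9 CPM, a mean of 82.1 ± 6.86 CPM (SD, n = 3). The ranges of the 2 genes did not overlap. P4ha1 gave 79.4%, 83.6% and 77.1% of the summed level per kilobase. The exon union was 4114 bases for P4ha1 and 6239 bases for P4ha2, while their longest single transcripts had 4043 and 3060 bases, and with those as length the mean share of P4ha1 was 66.8%.

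Promoters are shown for P4ha1, P4ha2 and Plod1. P4ha1 and P4ha2 are known targets of the hypoxia-inducible factor. Plod1 was picked as a window with a single core, and not as a gene known to lie outside the targets of that factor. The sequences are from RefSeq on GRCm38.p6, the assembly of mm10, which held a window for 5 of the 10 enzymes, Loxl4, Plod1, Plod3, P4ha1 and P4ha2. Each is read 5′ to 3′ on the strand of its gene, ends at the base before the annotated start of the gene, and leaves out bases in annotated exons. Capitals mark the core of the hypoxia response element, searched as ACGTG or GCGTG on both strands with overlapping matches counted separately, so that a core on the other strand reads CACGT or CACGC.
P4ha1, chr10:59323046-59323196, plus strand: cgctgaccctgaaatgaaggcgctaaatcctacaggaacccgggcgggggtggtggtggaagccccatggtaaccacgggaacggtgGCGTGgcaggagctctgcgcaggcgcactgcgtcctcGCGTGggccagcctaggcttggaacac
P4ha2, chr11:54100674-54100923, plus strand: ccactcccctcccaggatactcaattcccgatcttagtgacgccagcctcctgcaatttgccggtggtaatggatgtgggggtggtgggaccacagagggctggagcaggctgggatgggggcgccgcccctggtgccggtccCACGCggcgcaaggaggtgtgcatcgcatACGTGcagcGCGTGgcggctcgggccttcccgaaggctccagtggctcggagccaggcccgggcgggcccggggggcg
Plod1, chr4:147936777-147937026, minus strand: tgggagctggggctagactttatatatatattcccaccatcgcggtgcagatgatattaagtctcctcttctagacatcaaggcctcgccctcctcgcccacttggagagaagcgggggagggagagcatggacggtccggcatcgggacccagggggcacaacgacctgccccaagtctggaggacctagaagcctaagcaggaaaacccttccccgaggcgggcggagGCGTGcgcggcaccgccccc

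P4ha2 held 3 cores in the 250 bases before its start and Plod1 held 1, next to its transcription start. P4ha1 held 2 in the bases shown and 3 in its whole window of 250 bases, chr10:59323046-59323295, which reaches into its first exon. Among the enzymes whose windows are not shown, Plod3 held 4 cores, all within annotated exons, which cover 208 of its 250 bases, and Loxl4 held 1 outside them. Of 32851 promoter windows of 250 bases in the same table, 38.6% held at least 1 core, 16.7% at least 2 and 6.58% at least 3. The windows of P4ha1, P4ha2 and Loxl4 were rich in G and C, at 69.6%, 70.0% and 76.0%, against a median of 52.4% over all windows. Plod1 at 61.6% and Plod3 at 55.6% were above that median too. The shares of windows with cores were not matched for G and C. A match of these letters is a description of the window and not a binding site.

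Set side by side per kilobase, Loxl1 and P4ha1 stood above the other enzymes and Loxl4 below them. Loxl1, at 167 ± 19.5 CPM per kilobase, was 68.9 times Loxl4, at 2.43 ± 0.812 (SD, n = 3 each). P4ha1 came second at 53.5 ± 8.45 CPM per kilobase, and its range overlapped neither that of Loxl1 above nor that of Lox below. Lox at 23.1 ± 11.9, Loxl2 at 22.0 ± 5.16 and Plod2 at 18.5 ± 1.95 CPM per kilobase followed. Lox and Loxl2 did not differ beyond their spread, nor did Loxl2 and Plod2.

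Then came P4ha2 at 13.2 ± 1.10, Plod3 at 11.4 ± 3.12, Loxl3 at 7.58 ± 1.43 and Plod1 at 4.83 ± 0.323 CPM per kilobase. Plod1 and Loxl4 had ranges apart with every length tried. Plod2 and P4ha2 had ranges apart with exon length but not with coding length, where P4ha2 was higher at 51.0 against 43.8 CPM per kilobase for Plod2. Loxl3 and Plod1 also had ranges apart with exon length, but they overlapped with coding length, with the longest transcript and as plain CPM. P4ha2 and Plod3 overlapped, with P4ha2 higher in 2 of 3 libraries, but had ranges apart, P4ha2 higher, with each of those other lengths. Plod3 and Loxl3 also overlapped in range, although Plod3 was higher in 3 of 3 libraries. They overlapped with coding length and as plain CPM too. With the longest transcript their ranges were apart, Plod3 being higher at 15.7 against 8.51 CPM per kilobase for Loxl3.

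**Figure D3:**
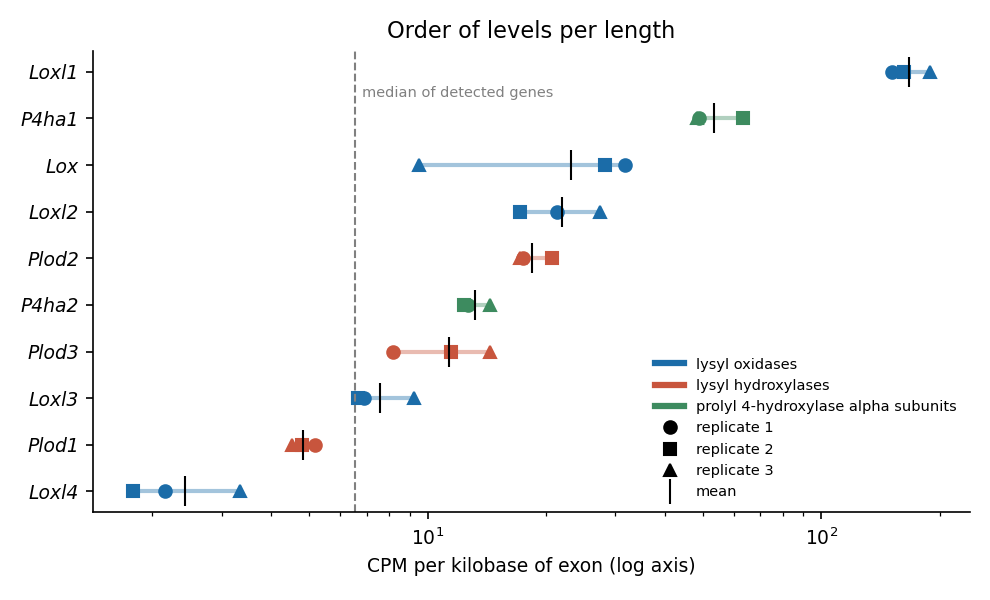
The 10 enzymes in the order of their mean CPM per kilobase of exon, on a log axis, with the 3 libraries as points, their range as a coloured line, the mean as a vertical tick and the median of detected genes as a dashed line. Loxl1 at 167 and P4ha1 at 53.5 stood clear of the rest, while the neighbours Lox and Loxl2, Loxl2 and Plod2, P4ha2 and Plod3, and Plod3 and Loxl3 overlapped.

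Within families, 14 pairs of enzymes were compared as differences of log2(CPM per kilobase + 0.5) in each library. With exon length, in 13 of the 14 pairs the same enzyme was higher in 3 of 3 libraries and the ranges did not overlap. With 3 libraries the exact sign-flip permutation test (two-sided) cannot give a p below 0.25, which each of these 13 pairs reached, or 0.269 after Benjamini-Hochberg adjustment over the 14 pairs. No pair could therefore pass 0.05.

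Loxl1 exceeded Lox by 2.23, 2.50 and 4.24 log2 units in replicates 1, 2 and 3, and Loxl2 by 2.80, 3.20 and 2.76. The first of these differences was thus much larger in replicate 3, while the second was not. P4ha1 exceeded P4ha2 by 1.98 ± 0.304 log2 units (SD, n = 3), and Plod2 exceeded Plod1 by 1.83 ± 0.168. Plod2 exceeded Plod3 by 1.05, 0.824 and 0.245, so the gap between them was smallest in replicate 3.

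The remaining pair was Lox and Loxl2. Lox minus Loxl2 was 0.56, 0.70 and -1.48 log2 units in replicates 1, 2 and 3, a mean of -0.07 ± 1.22 (SD, n = 3; exact sign-flip p = 1.0). The sign of the mean rests on replicate 3: without it the difference was 0.63, and with coding length it was 0.655. Lox minus Loxl3 kept its sign in all libraries but was only 0.04 in replicate 3, against 2.13 and 2.01 in replicates 1 and 2.

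Each library was then set against the other 2 over the 13289 genes with at least 10 counts in a library. Such a comparison has 1 residual degree of freedom and takes the rest of its spread estimate from other genes, so a p that misses the threshold does not show that a level was the same. By edgeR's quasi-likelihood test with Benjamini-Hochberg adjustment, 0 of the 10 enzymes and 0% of all genes passed 0.05 for replicate 1, and the same held for replicates 2 and 3. At an unadjusted p under 0.05, 0 enzymes stood out for replicate 1, 0 for replicate 2 and 1 for replicate 3, where 3.85%, 4.96% and 5.07% of all genes did in that order. The 1 enzyme was Lox. Its level in replicate 3 was 45.4 CPM, against 151 and 135 CPM in replicates 1 and 2, a log2 difference of -1.66 with an unadjusted p of 0.00493 and an adjusted p of 0.895 (edgeR). DESeq2's Wald test called 0, 0 and 1 enzymes for replicates 1, 2 and 3, where it called 1.12%, 1.66% and 1.61% of all genes that it gave an adjusted p. The 1 enzyme was again Lox in replicate 3 (log2 -1.66, adjusted p = 0.0249). The call for Lox therefore depends on the tool and rests on 1 library, and its level in each library is given here as a description.

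Among the other 9 enzymes, the fitted differences furthest from 0 were those of Loxl4 in replicate 3, at 0.76, and of Plod3 in replicate 1, at -0.66 (edgeR). Loxl1, Loxl2 and Loxl3 had differences of 0.27, 0.51 and 0.45 in replicate 3, all above 0. P4ha1 in replicate 2 had 0.38. Plod1 stayed between -0.14 and 0.15 in all 3 libraries.

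**Figure D4:**
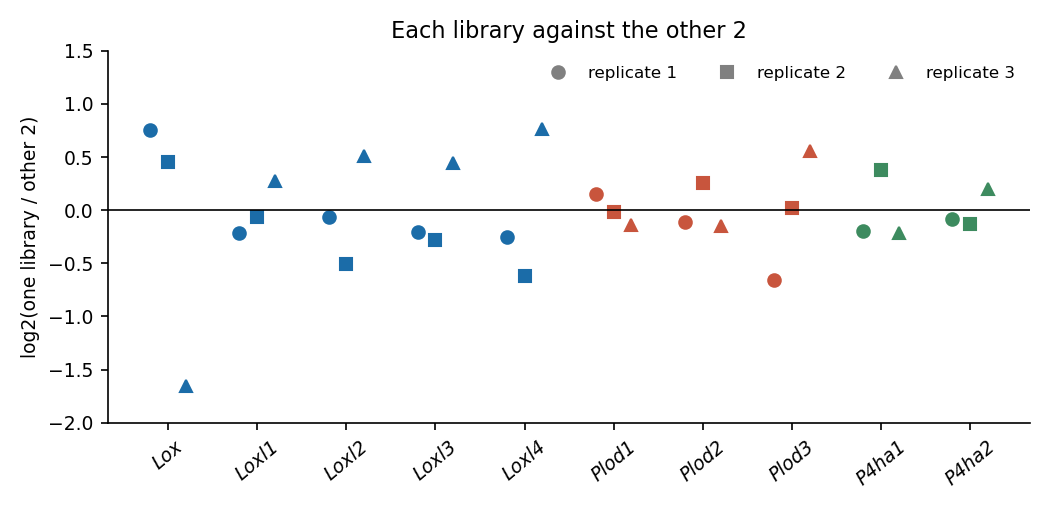
Fitted log2 difference of each library from the other 2 (edgeR) for the 10 enzymes, with a line at 0. Lox in replicate 3 lies lowest at -1.66, and all other points lie between -0.66 and 0.76.

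Reads of overlapping genes cannot be told apart without knowing the strand used in counting, which is not given in the sources used here. Loxl3 shares 535 exon bases with Htra2 on the other strand, which had 0, 5 and 37 counts. Plod3 shares 529 exon bases with Znhit1 on the other strand, which had 971, 1243 and 1395 counts, highest in replicate 3 as Plod3 was. The part of Znhit1 reads in the level of Plod3 was not tested. Within families, the longest run of identical bases shared by transcripts of different members was between 11 and 32 bases, the longest being that of Lox and Loxl1. Lox, Loxl2 and Plod2 share 30, 301 and 346 exon bases with AC161119.1, Gm27177 and Gm38391 on the other strand, whose counts were not analysed here.

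Around these enzymes, 64 genes of 9 lists on the collagen pathway were measured and 46 were detected. Among the partners of prolyl hydroxylation 6 of 8 were detected. Crtap, which with P3h1 and Ppib forms the prolyl 3-hydroxylation complex, led them at 84.0 ± 24.6 CPM per kilobase, followed by Ppib, P3h1 and P3h3. Ppib, the cyclophilin of that complex, had 77.8, 67.5 and 24.5 CPM in replicates 1, 2 and 3. P4ha3, the third alpha subunit gene, had 11, 0 and 0 counts.

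P4hb, the shared beta subunit that alpha subunits need to form an active enzyme, had 5.20, 12.7 and 6.86 CPM in replicates 1, 2 and 3. Per kilobase this was 1.82, 4.43 and 2.40 CPM, below P4ha1 and P4ha2 in every library. P4ha1 was 26.9, 14.3 and 20.2 times P4hb per kilobase, and P4ha2 was 6.98, 2.79 and 6.01 times. How reads were counted is not given in the sources used here, and loss of P4hb reads in counting was not tested.

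Of the galactosyltransferases that act on hydroxylysine, Colgalt1 was detected and Colgalt2 was not. Colgalt1 had 141, 144 and 70.7 CPM in replicates 1, 2 and 3, lowest in replicate 3, and Colgalt2 had 5.10, 0.832 and 0 CPM. Chaperones and export factors were detected for 7 of 8 genes, led by Serpinh1 (HSP47, the collagen-specific chaperone) at 59.3 ± 8.73 CPM per kilobase, Sec24d at 48.2 ± 8.37, Sec23a at 36.7 ± 1.75 and Mia3 at 35.0 ± 5.24 (SD, n = 3).

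Procollagen proteinases and their enhancers were detected for 5 of 8 genes. The enhancers Pcolce2 and Pcolce stood at 111 ± 15.6 and 107 ± 12.2 CPM per kilobase (SD, n = 3). Bmp1, the proteinase that trims procollagen and also activates pro-Lox, averaged 20.6 ± 5.21 CPM per kilobase, and Adamts2 12.5 ± 4.19. Other matrix crosslinking enzymes were detected for 2 of 5 genes, Pxdn (peroxidasin, which crosslinks collagen IV) at 19.7 ± 1.03 and Tgm2 (tissue transglutaminase) at 3.69 ± 0.800 CPM per kilobase. F13a1 had 0 counts in replicates 1 and 2 and 46 in replicate 3, and Tgm1 had 2 counts in all.

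All 3 genes of copper delivery were detected. Atox1, the copper chaperone that hands copper to the secretory pathway, averaged 948 ± 248 CPM per kilobase, above each of the 10 enzymes. In plain CPM Atox1 averaged 513, below Loxl1 at 551. Atp7a, the pump that loads copper onto lysyl oxidases, averaged 5.68 ± 2.04, and Slc31a1, the copper importer, had 27.6, 5.43 and 26.2 CPM in replicates 1, 2 and 3. Replicate 2 was thus low for Slc31a1, and Atp7a had its lowest value there too, at 29.1 CPM against 58.1 and 61.6 CPM in replicates 1 and 3.

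The substrates were abundant. Of 10 fibrillar collagen and elastin genes 7 were detected, led by Col3a1 at 994 ± 206 CPM per kilobase, Col5a2 at 97.6 ± 25.1, Col1a1 at 83.8 ± 7.53 and Eln at 68.5 ± 5.08 (SD, n = 3). Loxl1 was 2.04, 2.39 and 2.96 times Eln per kilobase in replicates 1, 2 and 3. Against Fbln5, the fibulin that binds it, Loxl1 was 2.56, 1.83 and 1.99 times. These ratios depend on exon length. In plain CPM Loxl1 had 497, 534 and 622, against 599, 549 and 517 for Eln and 407, 611 and 654 for Fbln5. Loxl1 was then below Eln in replicates 1 and 2 and below Fbln5 in replicates 2 and 3. Set against the sum of 6 fibrillar collagen genes per kilobase, the lysyl oxidases stood at -2.85, -2.61 and -2.14 log2 units. Col3a1 was by far the largest of these 6 genes, and no other length was tried for ratios to the sum. The prolyl 4-hydroxylase alpha subunits stood at -4.64, -4.13 and -4.07, and the lysyl hydroxylases at -5.64, -5.16 and -4.86. In each family the ratio was lowest in replicate 1. Col3a1 was highest there at 11684 CPM, against 9931 and 7654 CPM in replicates 2 and 3. The summed level of each family was also lowest in replicate 1. It was 213 CPM per kilobase for the lysyl oxidases, 61.5 for the prolyl 4-hydroxylase alpha subunits and 30.9 for the lysyl hydroxylases. Proteins that bind fibrils were all detected, 8 of 8, led by Dcn (decorin) at 7243 ± 911 and Lum (lumican) at 1440 ± 669 CPM per kilobase, followed by Fn1 and Fbln5.

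**Figure D5:**
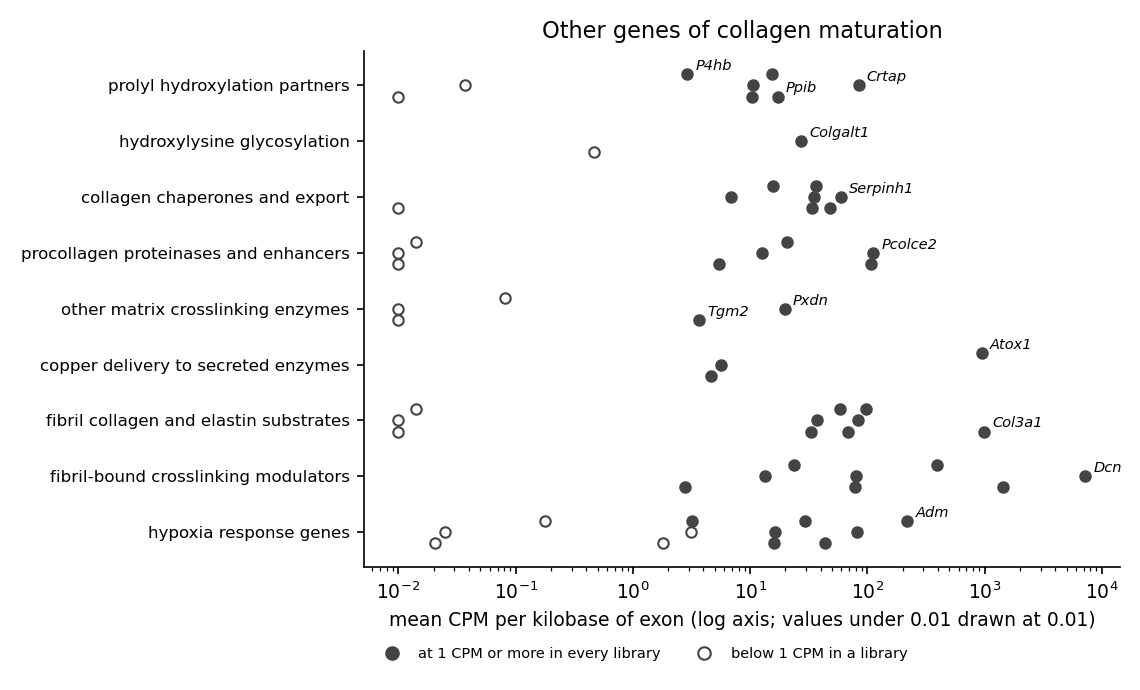
Mean CPM per kilobase of exon, on a log axis, of the 64 pathway genes by list, where each point is 1 gene, filled points were detected and open points were below 1 CPM in at least 1 library (values under 0.01 are drawn at 0.01). P4hb lies at 2.88 CPM per kilobase, and Dcn, Atox1 and Col3a1 are the most abundant genes of their lists.

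Hypoxia response genes were listed because Lox, Loxl2, Plod2, P4ha1 and P4ha2 are known targets of the hypoxia-inducible factor. Of 12 such genes 7 were detected, led by Adm at 218 ± 44.5, Aldoa at 82.0 ± 6.32, Ldha at 43.5 ± 2.87 and Vegfa at 29.6 ± 10.8 CPM per kilobase (SD, n = 3). Pgk1, Aldoa and Ldha have processed copies in the mouse genome, so their levels are uncertain. Slc2a1 and Car9, common markers of hypoxic cells, were near 0, with 7 and 4 counts over all 3 libraries. Vegfa had 111, 179 and 90.8 CPM in replicates 1, 2 and 3, highest in replicate 2. Of the listed targets, P4ha1 and Plod2 also had their highest values in replicate 2. P4ha2 and Loxl2 had their lowest there, P4ha2 narrowly at 77.2 against 79.1 CPM in replicate 1, and Lox lay between its other values. Egln1, Ldha, Pgk1 and Ankrd37, also of the hypoxia list, were highest in replicate 2 as Vegfa was. Bnip3 had 50.7, 16.3 and 42.6 CPM, lowest in replicate 2. Egln3 had 42, 1 and 2 counts in replicates 1, 2 and 3, so its order in replicates 2 and 3 lies within counting error. Aldoa and Pdk1 were highest in replicate 3. Adm, with 273, 378 and 410 CPM, was highest in replicate 3.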

How the data were processed

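The RNA of 3 libraries of 1 group was amplified as full-length cDNA with a SMARTer Ultra Low Input kit (V4), per the labels. Versions given by the submitters' processing notes are STAR 2.3.0 and CASAVA 1.8.2, with build mm10. How reads were counted, on which annotation and strand, is not given in the sources used here. A table deposited by the authors lists raw counts for each NCBI gene ID. Its 3 columns were matched to the samples by number. Of 27179 IDs, 25275 matched the RefSeq gene table of GRCm38.p6, and the 1904 others held 0.293% to 0.345% of the counts.

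CPM came from these counts and TMM library sizes (edgeR 4.0.16, R 4.3.3). Gene positions are from RefSeq. CPM were divided by the kilobases of the union of annotated exons (GENCODE M21, 21610 genes). Detection required at least 1 CPM in each library. Log2 differences used a pseudocount of 0.5, which understates those of low genes. Differences of single libraries from the remaining pair were fitted by quasi-likelihood in edgeR over genes with 10 counts or more in at least 1 library. The lone library is taken there to vary like the rest. DESeq2 1.42.0 was an alternative. For counting error alone, the depths of 25060096 to 32813373 counts limit precision little for these genes. Spread from the amplification of cDNA was not measured.

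The enzymes were proposed by name, and they, the gene lists and the alternatives were chosen with earlier results of these data known. All 10 enzymes are named, with the 4 genes of each pathway list highest per kilobase, and genes that overlap an enzyme. P4ha3, P4hb, Egln1, Egln3, Pgk1, Bnip3, Slc2a1 and Car9 were named after their values were seen. Alternatives were other size factors, lengths, pseudocounts, detection thresholds and filters, and leaving out each library. Other lengths for the order across families were added after the data were seen.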

Additional observations from a re-analysis of the deposited data

How the results depend on the processing

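All 10 enzymes were detected at 0.5 and 5 CPM, with DESeq2 size factors, with column totals and without each library in turn, and 9 at 20 CPM, Loxl4 being the exception. Among 126 alternatives over the 14 within-family differences, 124 kept their sign. The 2 that turned were both of Lox minus Loxl2, at -0.07 log2 units: it was 0.655 with coding length, and leaving out 1 library gave values from -0.46 (without replicate 2) to 0.63 (without replicate 3). P4ha1 minus P4ha2 ranged from 1.00 with the longest transcript to 2.11 without replicate 3. With coding length, Loxl1 minus Lox was 1.92, Lox minus Loxl3 2.34 and Plod3 minus Plod1 0.575, against 2.99, 1.39 and 1.12 with exon length. In the order across families, Plod2 minus P4ha2 was -0.22 with coding length and Loxl2 minus Plod2 -0.30 with the longest transcript, against 0.47 and 0.22 with exon length; these lengths were tried there after the data were seen.

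With no filter on low counts, 16, 16 and 36 genes differed for replicates 1, 2 and 3 (edgeR), against 0 with the filter, and DESeq2's Wald test called 126, 199 and 197. Of the enzymes, it called 1, Lox in replicate 3, and edgeR without the filter gave Lox there an adjusted p of 0.176. The cause was not tested. With DESeq2 size factors in edgeR the counts were 0, 0 and 0, and the adjusted p of Lox was 0.894. Leaving out a library leaves 1 against 1, with no test. No paired analysis was possible because there is 1 group. Lengths rest on the annotation, not on the isoforms of these cells.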

Other observations

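The low counted level of P4hb beside its partner subunits led to a look at other endoplasmic reticulum genes. These were chaperones and disulfide isomerases, chosen after the value of P4hb was seen. P4hb had 1.82, 4.43 and 2.40 CPM per kilobase in replicates 1, 2 and 3. Pdia3, an isomerase that works with calnexin, had 68.3, 52.0 and 60.0 CPM per kilobase, and Pdia6 had 119, 106 and 135. Pdia4 had 8.77, 6.69 and 4.70 CPM per kilobase. Every one of these was above P4hb in all 3 libraries. Hspa5 (BiP) had 463, 720 and 536 CPM per kilobase, Hsp90b1 340, 271 and 283, and Canx (calnexin) 243, 191 and 233. Calr (calreticulin), which shares its role with calnexin, was lower at 17.9, 16.5 and 7.12 CPM per kilobase.

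Several genes outside the enzymes differed widely between the libraries and are given as values, chosen after they were seen. Pdk1 had 0.882, 5.23 and 36.2 CPM in replicates 1, 2 and 3. Ankrd37 had 1.42, 12.7 and 0.357 CPM in the same order.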
